A study of Mus musculus with 6 samples.

Results

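Of the genes on the array, 7 that encode regulators of the decay of inflammatory mRNAs are described here: Zc3h12a, Zfp36, Zfp36l1, Zfp36l2, Khsrp, Hnrnpd and Elavl1. They were chosen by name, and every probe set listed with exactly 1 of these symbols was taken, which gave 20 of the 45101 probe sets. All 7 passed the filter on low signal and are among the 12917 genes tested. RNA came from primary fibroblasts grown out of ICR mouse embryos of embryonic day 15.5, with 1 culture from each of 2 embryos, and was read on a 1-colour Affymetrix expression array. The HS+LPS cells were held at 42 °C for 1 h and then given lipopolysaccharide (LPS) for 4 h, the LPS cells were given LPS at 1 μg/ml for 4 h with no heat shock, and the Control cells stayed at 37 °C with no LPS. Each group was measured in both cultures, so there were 6 arrays. None of the 6 arrays came from cells given heat shock alone, so HS+LPS against LPS holds the effect of heat as well as its interplay with LPS.

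Many cytokine and chemokine mRNAs carry AU-rich elements or stem-loops in their 3' untranslated regions that mark them for rapid degradation. Zc3h12a (Regnase-1) is an endonuclease that cuts such stem-loops and is itself switched on by NF-kB signalling. Zfp36 (tristetraprolin), Zfp36l1 and Zfp36l2 are CCCH zinc finger proteins that bind AU-rich elements and bring in the CCR4-NOT deadenylase complex. Khsrp, a KH-domain protein, and Hnrnpd (AUF1) bind the same class of element and are mostly linked to decay, whereas Elavl1 (HuR) binds it and stabilises the mRNA.

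Signals are scaled linear intensities of 1 probe set per gene, the brightest. Differences are on the scale of log2(intensity + 3.37), with limma standard errors from 1 fit of all 3 groups, and a gene passed where its p, adjusted over all genes by Benjamini-Hochberg, was under 0.05. Because both cultures went through all 3 conditions, the same test with the culture as a block is given beside it where the call differs. All 12 fibroblast markers read above the noise level on all 6 arrays. The noise level of an array is the brightest of 27 Bacillus subtilis control probe sets, at most 7.67. The summed signal of the fibroblast markers was 33383 to 37333 in HS+LPS, 33237 to 35695 in LPS and 31659 to 41348 in Control. Single markers varied more, with Pdgfra from 117 to 1309 and Lum from 119 to 1820 over the 6 arrays. Of 10 macrophage markers, 7 in HS+LPS, 7 in LPS and 6 in Control were above noise on both arrays, with sums of 247 to 369 in HS+LPS, 311 to 503 in LPS and 287 to 467 in Control. Aif1, Itgam and Fcgr1 were under noise on all 6 arrays, whereas Lyz2 (89.8 to 220), Cd14, Csf1r, Cd68, Adgre1 and Spi1 were above it on all 6. Of 8 endothelial markers 4 were above noise in each group, with sums of 113 to 143 in HS+LPS, 80.6 to 127 in LPS and 109 to 133 in Control. Pecam1 was under noise on all arrays, whereas Kdr, Tek, Emcn and Egfl7 were above it on all 6. Of 8 epithelial markers, 5 in HS+LPS, 4 in LPS and 4 in Control were above noise, and their sums were higher in HS+LPS, at 212 to 234, than in LPS, at 127 to 141, or in Control, at 105 to 151. In HS+LPS against LPS, 1 of 12 fibroblast and 1 of 7 tested macrophage markers were lower without the block, where 0.828% of all genes were lower. With the block 2 fibroblast markers and 1 macrophage marker were lower and 2 of 6 tested epithelial markers higher, where 12.6% of all genes were lower and 6.32% higher. The part of these markers' cell types in the results below was not tested, and in bulk RNA fewer cells of a type and less RNA per cell cannot be told apart.

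Zc3h12a was the regulator that rose with LPS, both with and without a heat shock before it. It read 322 and 365 in the HS+LPS arrays of cultures 1 and 2, 411 and 364 in the LPS arrays, and 46.3 and 47.4 in the Control arrays. Both stimulated groups lay far above Control, and the HS+LPS and LPS ranges overlapped. The difference of LPS from Control was 2.96 (SE 0.14, 7.76-fold, limma adjusted p = 0.00593), and that of HS+LPS from Control was 2.79 (SE 0.14, 6.89-fold, limma adjusted p = 0.00188). Between HS+LPS and LPS the difference was -0.17, with a 95% interval of -0.53 to 0.18 (limma adjusted p = 0.618), so a fall of more than 1.44-fold lies outside the interval. By culture this difference was -0.35 in culture 1 and 0.0049 in culture 2. The LPS call rests on few arrays: it was lost without Control 1 (limma adjusted p = 0.0635), without LPS 1 (0.156) and without LPS 2 (0.0995), with the difference still between 2.87 and 3.04. The call of HS+LPS against Control held under each of the 16 alternatives run, with adjusted p up to 0.0454. The dimmer Zc3h12a probe set read 40.8 and 47.6 in HS+LPS, 49.6 and 65.9 in LPS, and 13.2 and 15.3 in Control. It gave 1.79 for LPS against Control (limma adjusted p over all probe sets = 0.128, and 0.0019 with the block). HS+LPS against Control was 1.43 (limma adjusted p = 0.105, and 0.00327 with the block). Unlike the brightest probe set, it had both HS+LPS arrays below both LPS arrays. That difference was -0.35 and was not called (limma adjusted p = 0.593, and 0.301 with the block).

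The 250 bases before the annotated start of Zc3h12a are shown because it is the regulator with the largest change; they lie at chr4:125127882-125128131 on the minus strand (RefSeq, GRCm38.p6), with GC boxes (GGGCGG on either strand) in capitals.
Zc3h12a promoter: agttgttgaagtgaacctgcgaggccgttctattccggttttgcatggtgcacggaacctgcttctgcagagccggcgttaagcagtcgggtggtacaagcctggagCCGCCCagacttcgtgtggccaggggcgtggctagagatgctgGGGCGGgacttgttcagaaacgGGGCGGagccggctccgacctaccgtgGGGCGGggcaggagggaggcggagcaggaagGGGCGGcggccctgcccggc
It holds 5 such boxes, and 32.7% of the 32851 windows of this length in the promoter table hold at least 1. Of the other regulators with a window, Hnrnpd holds 3, Zfp36 and Khsrp 1 each, and Zfp36l1 and Elavl1 0. A kappa B consensus was found in none of the 6 regulators with a window (7.25% of all windows hold one), nor was a heat shock element of alternating GAA and TTC units set 2 bases apart, starting with GAA and 3 units long, on either strand (0.466% of windows). These counts describe the letters in these windows.

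Of the 7 regulators, 1 was higher in LPS than in Control, Zc3h12a, and 6 did not pass, where 0.147% of all genes tested were higher. With the block it was again 1 of 7, where 2.06% of genes were higher and 0.72% lower. At an unadjusted limma p under 0.05 it was also 1, where 3.17% of genes were higher and 1.7% lower. Both LPS arrays lay above both Control arrays for 2 of 7, Zc3h12a and Elavl1, where 13.1% of genes did so and 18.3% lay below. Zc3h12a was 1 of the 19 genes that rose with LPS without the block, a set that depends on the rule, since 266 genes rose with the block and at most 4 were called when 1 array was left out. Their differences between HS+LPS and LPS ran from -5.17 (Ccl5, a chemokine) to 0.83 (Nfkbiz, which encodes the nuclear co-regulator IkB-zeta), and the median of the 18 besides Zc3h12a was -3.09. By the size of this difference Zc3h12a stood second from the top of these 19, after Nfkbiz and before the deubiquitinase Tnfaip3 at -1.12. The 19 were picked for high LPS arrays, which also enter the second comparison, so these values are a description and not a test.

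**Figure D1:**
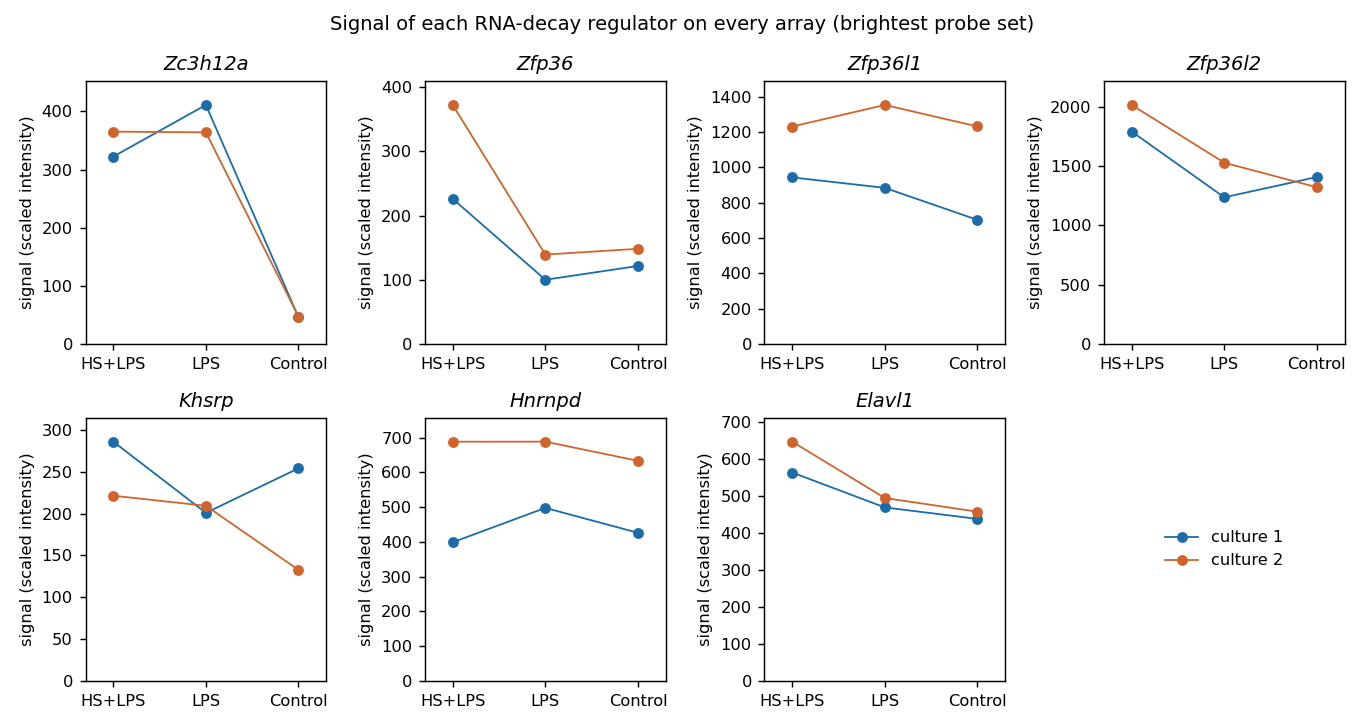
Signal (scaled intensity, linear axis from 0) of the brightest probe set of each regulator in HS+LPS, LPS and Control; points are single arrays and lines join the arrays of 1 culture (blue, culture 1; orange, culture 2). Zc3h12a is high in HS+LPS and LPS, Zfp36 is highest in HS+LPS in both cultures, and culture 2 lies above culture 1 on every array of Zfp36l1 and Hnrnpd.

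Zfp36, which is also known as an early response gene, showed another pattern: its signal was higher in HS+LPS and did not stand out in LPS alone. It read 226 and 372 in HS+LPS, 100.3 and 139 in LPS, and 122 and 149 in Control. Both HS+LPS arrays lay above all 4 others, and the LPS and Control ranges overlapped. The difference between HS+LPS and LPS was 1.27 (SE 0.29, 2.41-fold). It did not pass without the block (limma adjusted p = 0.109) and passed with it (limma adjusted p = 0.000376), at 1.15 in culture 1 and 1.40 in culture 2. HS+LPS against Control was 1.09 (SE 0.29, limma adjusted p = 0.157, and 0.00126 with the block). LPS against Control was -0.18, with an interval of -0.88 to 0.53 (limma adjusted p = 0.999, and 0.557 with the block), so a rise of more than 0.53 in Zfp36 at 4 h of LPS lies outside it. Zfp36 has 1 probe set on the array, of a type that reads several transcript forms of the gene, so no second probe set could be compared.

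The corresponding 250 bases of Zfp36 are shown because it has the largest difference between HS+LPS and LPS among the regulators; they lie at chr7:28379229-28379478 on the minus strand (RefSeq, GRCm38.p6), with a match to the CArG box consensus, the letters bound by serum response factor, in capitals.
Zfp36 promoter: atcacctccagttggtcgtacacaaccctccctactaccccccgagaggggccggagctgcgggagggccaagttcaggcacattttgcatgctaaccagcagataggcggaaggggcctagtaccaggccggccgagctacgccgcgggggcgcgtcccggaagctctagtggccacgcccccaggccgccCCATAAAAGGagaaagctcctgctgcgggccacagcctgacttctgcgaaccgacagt
The match begins 58 bases before the start, and 1.47% of the windows hold one. None of the other regulators with a window has this match. The window also holds 1 GC box, which lies just before the match and shares bases with it. In all, 10 motifs were searched in the 6 windows, so 1.47% is not the frequency of finding some match. Zfp36l1 held 1 TATA box and 1 AP-1 match, and no regulator held a CRE or interferon response match.

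Zfp36l2 also had its highest signals in HS+LPS, with a smaller difference than Zfp36. It read 1791 and 2015 in HS+LPS, 1237 and 1529 in LPS, and 1408 and 1322 in Control, with both HS+LPS arrays above the other 4. The difference between HS+LPS and LPS was 0.47 (SE 0.14, 1.38-fold, limma adjusted p = 0.182, and 0.0121 with the block). HS+LPS against Control was 0.48 (1.39-fold, limma adjusted p = 0.181, and 0.012 with the block). After quantile normalization the block no longer called either, at differences of 0.33 (limma adjusted p = 0.0569) and 0.35 (limma adjusted p = 0.0516). The second Zfp36l2 probe set, at a mean of 68.8 ± 21.8 in HS+LPS and 56.6 ± 1.64 in LPS (SD, n = 2), gave 0.23 and was not called. The third was under the noise level on 5 of 6 arrays and was left out by the filter.

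Zfp36l1 differed by culture more than by condition. It read 943 and 1231 in HS+LPS, 884 and 1353 in LPS, and 703 and 1231 in Control, and the 3 groups overlapped. None of its 3 differences passed, with or without the block. For HS+LPS minus LPS the 95% interval without the block ran from -0.82 to 0.78, which includes the spread between cultures. The standard error of this difference was 0.33 without the block and 0.10 with it. By culture the difference was 0.09 in culture 1 and -0.14 in culture 2. Culture 2 was above culture 1 on each of the 3 pairs of arrays, at 0.60 on average (SE 0.08, 1.52-fold, limma adjusted p = 0.00112 in the fit with the block). The second Zfp36l1 probe set showed the same, at 112 and 183 in HS+LPS, 133 and 231 in LPS, and 93.7 and 197 in Control for cultures 1 and 2.

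Hnrnpd, an AU-rich element binder, was also higher in culture 2 by its brightest probe set. It read 399 and 688 in HS+LPS, 498 and 688 in LPS, and 426 and 633 in Control, with the 3 groups overlapping. Its differences were -0.16 for HS+LPS minus LPS, 0.01 for HS+LPS minus Control and 0.17 for LPS minus Control. None passed, with or without the block. Without the block the first had an interval of -0.96 to 0.64, which includes the spread between cultures. Its standard error was 0.33 without the block and 0.09 with it. Culture 2 exceeded culture 1 by 0.60 (SE 0.08, 1.52-fold, limma adjusted p = 0.000767). The dim second Hnrnpd probe set did not follow this on every pair, at 18.6 and 25.3 in HS+LPS, 38.9 and 23.1 in LPS, and 18.3 and 35.4 in Control for cultures 1 and 2. Zfp36 was also higher in culture 2, by 0.48 (1.40-fold, limma adjusted p = 0.0109). These 3 of 7 calls stand beside 11.5% of all genes that were higher in culture 2 and 10.1% that were lower. Each culture is 1 embryo, so the test compares these cultures only, and embryo and culture cannot be told apart. The comparison was added after the data were seen.

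Khsrp was variable between cultures and showed no called difference. It read 286 and 221 in HS+LPS, 201 and 209 in LPS, and 254 and 133 in Control. Both HS+LPS arrays lay above both LPS arrays, and 1 Control array lay below and the other above both LPS arrays. The difference between HS+LPS and LPS was 0.29, with an interval of -0.47 to 1.05 (limma adjusted p = 0.705, and 0.326 with the block). LPS against Control was -0.33 in culture 1 and 0.64 in culture 2, of opposite sign. The brightest Khsrp probe set is of a type that may cross-hybridise with other transcripts. The probe set specific to Khsrp was dim, at 73.5 and 50.5 in HS+LPS, 51.8 and 46.3 in LPS, and 62.9 and 42.6 in Control, and gave a difference of 0.30 between HS+LPS and LPS.

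Elavl1, the stabilising member of the group, was slightly higher in HS+LPS. It read 562 and 646 in HS+LPS, 468 and 494 in LPS, and 437 and 457 in Control, so the 3 groups did not overlap. The difference between HS+LPS and LPS was 0.32 (SE 0.12, 1.25-fold, limma adjusted p = 0.266, and 0.0266 with the block). HS+LPS against Control was 0.43 (1.35-fold, limma adjusted p = 0.178, and 0.00966 with the block), and LPS against Control was 0.10 (limma adjusted p = 0.999, and 0.601 with the block). The size depended on the probe set. A second one of nearly equal brightness read 513 and 567 in HS+LPS, 493 and 521 in LPS, and 447 and 477 in Control, and its difference between HS+LPS and LPS of 0.09 was not called (limma adjusted p over all probe sets = 0.808, and 0.515 with the block). A dimmer one, at 79.7 and 54.4 in HS+LPS against 48.3 and 23.6 in LPS, gave 0.89 (limma adjusted p over all probe sets = 0.4003, and 0.0187 with the block).

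Counted over the group, 0 of 7 regulators passed in HS+LPS against LPS without the block, where 0.511% of all genes were higher and 0.828% lower. With the block 3 of 7 were higher (Zfp36, Zfp36l2 and Elavl1) and 0 lower, where 6.32% of all genes were higher and 12.6% lower. At an unadjusted limma p under 0.05 these 3 were higher too, where 4.94% of genes were higher and 11.8% lower. Both HS+LPS arrays lay above both LPS arrays for 4 of 7, these 3 and Khsrp, and below them for 0, where 17.9% of genes lay above and 28.8% below. That count rests on the brightest probe sets. The HS+LPS and LPS arrays overlapped on the second Zfp36l2 probe set and on the other tested Khsrp probe sets. They also overlapped on the Elavl1 probe set of nearly equal brightness, but not on the dimmer one given above. In HS+LPS against Control, 1 of 7 was higher without the block (Zc3h12a), where 0.17% of genes were higher and 0.00774% lower. With the block 4 of 7 were higher, Zfp36, Zfp36l2, Elavl1 and Zc3h12a, where 5.09% of genes were higher and 12.1% lower. The 4 were also those at an unadjusted limma p under 0.05, where 4.48% of genes were higher and 11.7% lower, and those whose HS+LPS arrays both lay above Control, where 14.3% of genes lay above and 31.1% below. The comparisons share arrays, so these counts are not independent of each other.

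**Figure D2:**
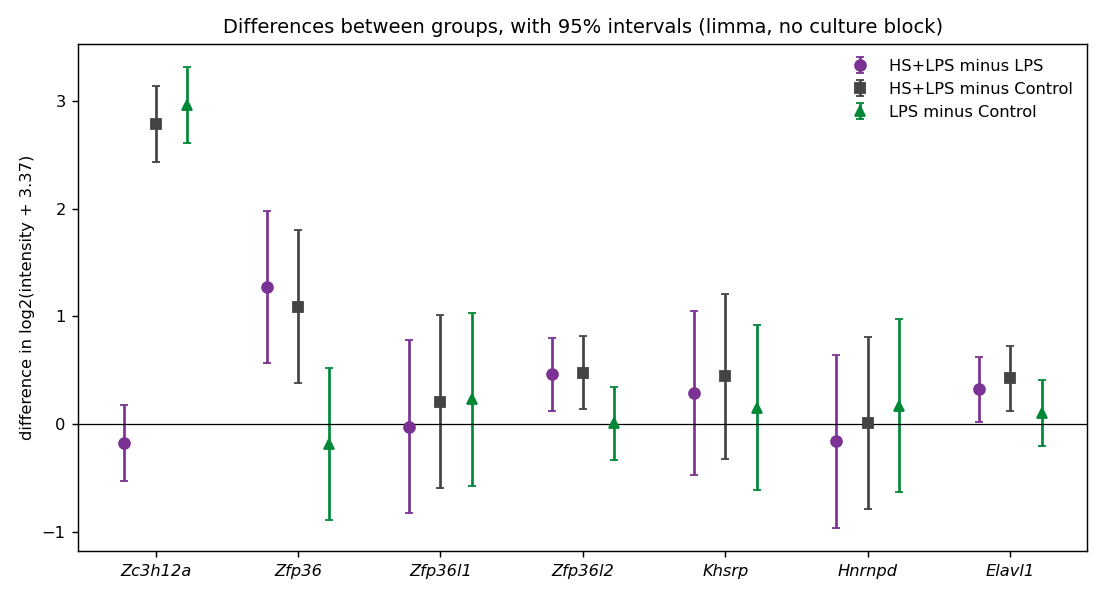
Differences in log2(intensity + 3.37) between groups for each regulator: HS+LPS minus LPS (purple circles), HS+LPS minus Control (grey squares) and LPS minus Control (green triangles), with 95% intervals from limma without the culture block. Zc3h12a is near 3 against Control in both stimulated groups and near 0 between them, whereas Zfp36 is 1.27 above LPS in HS+LPS.

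**Figure D3:**
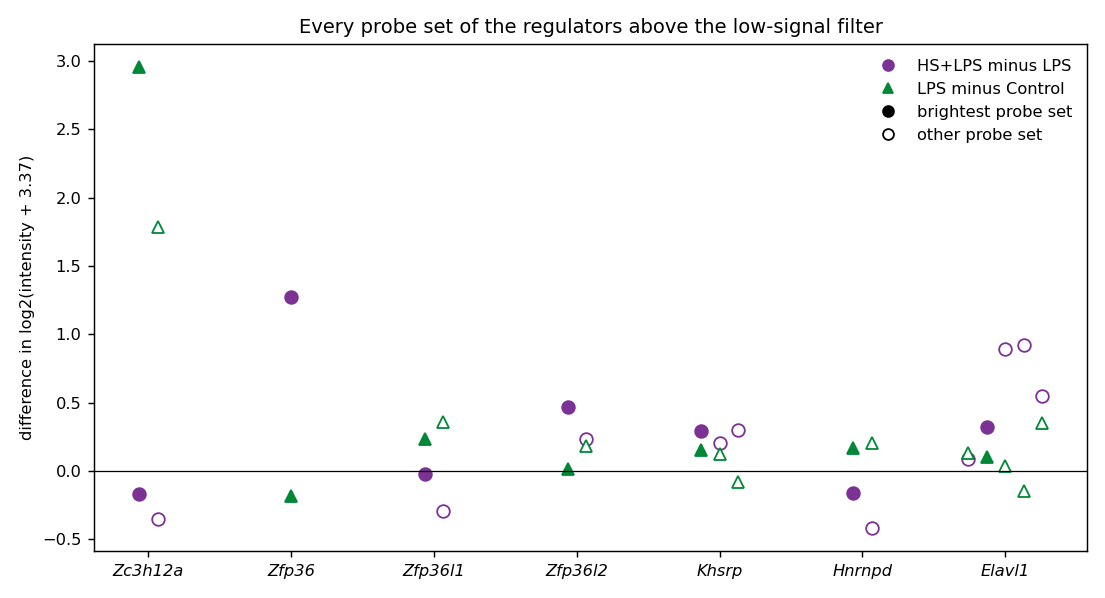
Differences in log2(intensity + 3.37) for the 17 probe sets of the regulators above the low-signal filter, in HS+LPS minus LPS (purple circles) and LPS minus Control (green triangles). Filled symbols are the brightest probe set of a gene and open symbols the others, placed left to right by signal in LPS. The Elavl1 probe sets spread from 0.09 to 0.92 in HS+LPS minus LPS.

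The genes whose 6 log2 values lay nearest to those of Zc3h12a, after centring each gene on its own mean, were Sec14l3, Ccnjl, Nfkbiz, Htr3a and Il6, at Euclidean distances from 1.22 to 1.57. Nfkbiz read 2158 ± 109 in HS+LPS, 1211 ± 39.6 in LPS and 428 ± 15.7 in Control (SD, n = 2), so unlike Zc3h12a it was higher in HS+LPS than in LPS (difference 0.83, limma adjusted p = 0.0303). Sec14l3, Ccnjl and Htr3a were dim, with means of 5.96, 2.02 and 1.42 in Control, where Ccnjl and Htr3a were under the noise level on both arrays and Sec14l3 on 1. Il6, the cytokine whose mRNA is a classic target of Zc3h12a, read 714 and 816 in HS+LPS, 1832 and 930 in LPS, and 271 and 72.3 in Control. Its difference between HS+LPS and LPS was -0.77, with an interval of -2.29 to 0.74 (limma adjusted p = 0.597, and 0.166 with the block), and LPS against Control was 3.18 (limma adjusted p = 0.285, and 0.00173 with the block).

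The nearest to Zfp36 were Id2, Chaserr, Klf9, Sowahc and Taf7, at distances of 0.18, 0.31, 0.32, 0.33 and 0.36. Distances grow with the size of a gene's change, so they cannot be compared with those of Zc3h12a, which changed more. Taf7 was dim, at means of 10.2 in LPS and 9.37 in Control. Id2, an inhibitor of basic helix-loop-helix factors, averaged 762 in HS+LPS, 292 in LPS and 346 in Control. Klf9, a Krüppel-like transcription factor, averaged 976 in HS+LPS, 454 in LPS and 529 in Control. These are likenesses over 6 arrays of shared cultures.

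Of the genes that carry out the decay, none passed without the block. Of 18 tested genes of deadenylation, 0 passed in any of the 3 comparisons without the block. With the block 1 was higher and 5 lower in HS+LPS against LPS (median -0.12, against -0.05 over all genes), where 6.32% of all genes were higher and 12.6% lower. The 5 were the CCR4-NOT subunits Cnot2, Cnot3, Cnot4, Cnot6 and Cnot7, of which Cnot2 read 163 and 163 in HS+LPS, 227 and 242 in LPS, and 227 and 254 in Control (difference from LPS -0.52, limma adjusted p = 0.139, and 0.00935 with the block). The Cnot2 probe set is of a type that may cross-hybridise with other transcripts, and that of Cnot7 of a type that may read several genes. After quantile normalization 2 of the list were lower with the block, not 5, where 1293 of the 12917 genes were lower. The higher one was Btg2, an antiproliferative protein that binds the deadenylase, at 292 and 409 in HS+LPS, 201 and 161 in LPS, and 128 and 185 in Control (difference from LPS 0.93, limma adjusted p = 0.159, and 0.0103 with the block).

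Of 17 decapping and 5'-to-3' decay genes, 0 passed without the block in any comparison, and 2 were higher and 1 lower with it in HS+LPS against LPS (median -0.05, as over all genes), counts to be read against the same 6.32% and 12.6% of all genes. Ddx6, the helicase of the decapping complex, read 707 and 692 in HS+LPS, 432 and 386 in LPS, and 448 and 406 in Control, with both HS+LPS arrays above all others (difference from LPS 0.77, SE 0.12, limma adjusted p = 0.0514, and 0.000478 with the block). Dcp2, the decapping enzyme, was at 127 and 144 in HS+LPS, 257 and 218 in LPS, and 126 and 189 in Control (difference from LPS -0.80, limma adjusted p = 0.168, and 0.0139 with the block). The third called with the block was Lsm14a, at 0.33, by a probe set of a type that may read several genes.

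Of 14 exosome genes, which encode the 3'-to-5' exonuclease complex and its helpers, 0 passed without the block and 3 were lower with it in HS+LPS against LPS (median -0.17, against -0.05 over all genes), where 12.6% of all genes were lower. Exosc7, a ring subunit, read 60.4 and 65.1 in HS+LPS, 109 and 148 in LPS, and 154 and 186 in Control (difference from LPS -0.98, limma adjusted p = 0.096, and 0.00186 with the block). Its difference of HS+LPS from Control was -1.38 (limma adjusted p = 0.0712, and 0.000552 with the block). Among 24 other binders of decay elements 0 passed without the block, and 5 were higher and 3 lower with it in HS+LPS against LPS (median 0.11, against -0.05 over all genes), where 6.32% of all genes were higher and 12.6% lower, so the share lower was near that of all genes. After quantile normalization these became 1 and 2, where 828 of the 12917 genes were higher and 1293 lower. Igf2bp1, which shields mRNAs from decay, differed by 0.72 and Rc3h2, a Roquin that binds the same stem-loops as Zc3h12a, by -0.72 (limma adjusted p = 0.119 and 0.346, and 0.00839 and 0.00528 with the block). Arid5a, a binder that protects Il6 mRNA from Zc3h12a, differed by 1.06 between HS+LPS and Control (limma adjusted p = 0.157, and 0.0218 with the block). In LPS against Control the block called 1 gene of deadenylation, Btg1 (0.34, limma adjusted p = 0.999, and 0.0499 with the block), and 0 of the decapping, exosome and other binder lists. Over all genes the block called 2.06% higher and 0.72% lower in this comparison, so such low counts are no result about these lists. After median centring the block called 0 genes of deadenylation and 1 of decapping, a setting for which no share of all genes is given.

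Among signalling genes that act on these regulators, Dusp1 and Malt1 had the largest differences between HS+LPS and LPS. Of 19 tested, 0 passed without the block, and 3 were higher and 3 lower with it in HS+LPS against LPS (median -0.11, against -0.05 over all genes), where 6.32% of all genes were higher and 12.6% lower, so the share lower was near that of all genes. Dusp1, the phosphatase that turns off p38, read 1471 and 1572 in HS+LPS, 792 and 230 in LPS, and 730 and 212 in Control. Both HS+LPS arrays were above the rest, and culture 1 was far above culture 2 without heat (difference from LPS 1.82, SE 0.73, limma adjusted p = 0.292, and 0.0112 with the block). Mapkapk2, the p38-activated kinase that phosphorylates Zfp36 and holds it inactive, read 233 and 223 in HS+LPS, 348 and 340 in LPS, and 193 and 228 in Control. Its difference of HS+LPS from LPS was -0.58 (limma adjusted p = 0.116, and 0.00708 with the block) and that of LPS from Control 0.70 (limma adjusted p = 0.285, and 0.00951 with the block). Map2k3, which activates p38, differed by 0.80 between HS+LPS and LPS (limma adjusted p = 0.192, and 0.00459 with the block). Malt1, a protease that cleaves Zc3h12a protein, read 15.8 and 11.0 in HS+LPS, 70.5 and 28.2 in LPS, and 19.1 and 18.1 in Control (difference from LPS -1.54, limma adjusted p = 0.167, and 0.0115 with the block). These arrays measure mRNA, so the activity of the proteins was not measured.

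Target mRNAs of these regulators were higher in LPS than in Control, and lower in HS+LPS than in LPS, more often than the reverse. Of 28 tested, 5 passed in LPS against Control, all higher: the chemokines Cxcl2, Ccl3, Ccl2 and Ccl7, and Nfkbiz (median 1.68, against -0.05 over all genes), and 18 were higher and 0 lower with the block. Over all genes 0.147% were higher without the block, and 2.06% were higher and 0.72% lower with it. In HS+LPS against LPS 9 were lower, 2 higher and 17 did not pass (median -1.40, against -0.05), and with the block 16 were lower and 5 higher (9 higher after median centring). The shares of all genes were 0.828% lower and 0.511% higher without the block, and 12.6% lower and 6.32% higher with it. No share of all genes is given for the block after median centring. In HS+LPS against Control 1 was higher, Nfkbiz (median 0.63, against -0.09 over all genes), and with the block 13 were higher and 2 lower. Of all genes 0.17% were higher without the block, and 5.09% were higher and 12.1% lower with it. The list of targets was drawn up with earlier results of these data known, so its direction is a description.

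Among the targets that were lower, Tnf read 1.77 and 2.46 in HS+LPS, both under the noise level, against 47.5 and 31.1 in LPS (limma adjusted p = 0.0287). Cxcl2, a neutrophil chemokine, read 61.6 and 110.3 in HS+LPS against 1190 and 886 in LPS (difference -3.58, limma adjusted p = 0.0476). In Control Cxcl2 read 0.285 and 7.34, the first under the noise level. Its difference of HS+LPS from Control was 3.78 (limma adjusted p = 0.0681, and 0.000552 with the block). The 2 that were higher were Nfkbiz, described above, and Vegfa, the vascular growth factor, at 690 and 698 in HS+LPS against 234 and 169 in LPS (difference 1.79, limma adjusted p = 0.0399).

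**Figure D4:**
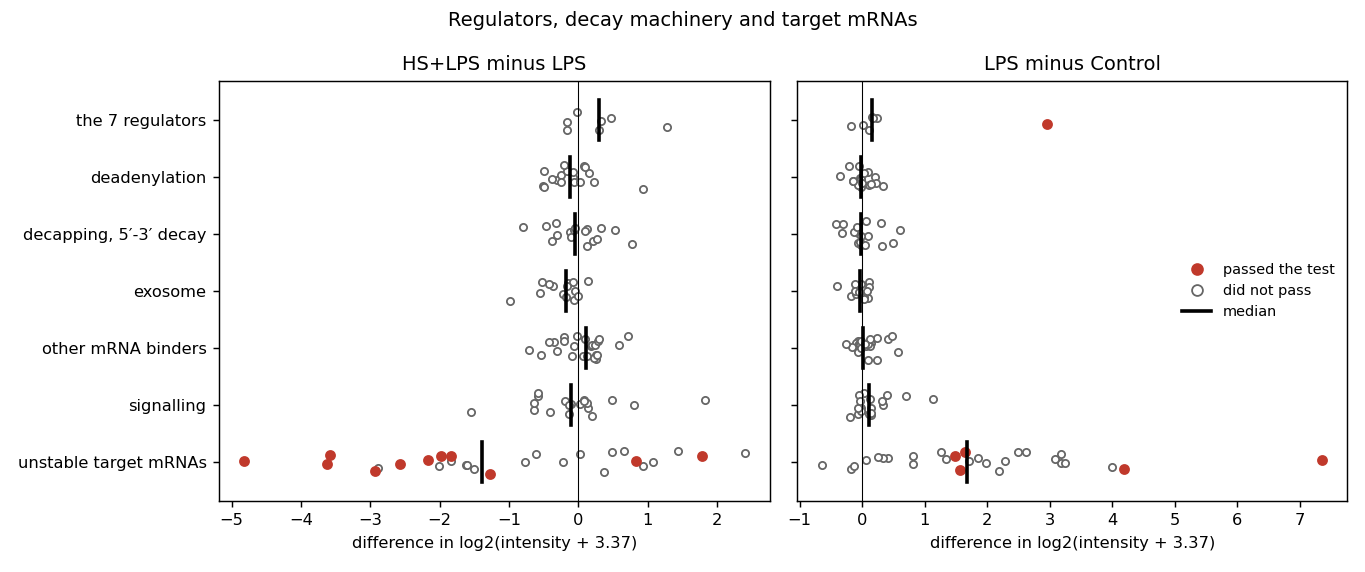
Differences in log2(intensity + 3.37) for the 7 regulators, for each list of decay machinery, other binders and signalling genes, and for the target mRNAs, in HS+LPS minus LPS (left) and LPS minus Control (right). Each point is a gene, red where it passed limma without the block, and bars are medians; the target mRNAs have medians of -1.40 and 1.68, and the other lists lie within 0.2 of 0 except the regulators in HS+LPS minus LPS.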

How the data were processed

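Each deposited value is the intensity of a probe set on 1 array, on a linear scale. On each array the mean after trimming 2% at each end was 100.001, as after scaling to a target of 100 by the authors; the software is not given in the sources used here. Precision is limited by the number of arrays, 2 per group. Probe sets were named through GEO's platform annotation, and promoter sequences from RefSeq (GRCm38.p6; 6 of 7 regulators matched).

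Signals were turned into log2(intensity + 3.37), 3.37 being the 25th percentile of all values. Control probe sets were left out, as were those whose mean log2 value fell below the 40th percentile. For each gene the brightest probe set with a single symbol was used. limma 3.58.1 in R 4.3.3 (lmFit, eBayes with an intensity trend) tested the 3 groups in 1 fit, with Benjamini-Hochberg adjustment over 12917 genes, and was tested on simulated data. The culture numbers pair the arrays, since the source names number the arrays by culture and the series' design text gives each culture an embryo of its own. Their departures from the group means correlated at 0.54 to 0.62 between arrays of a culture. The block lowered the median standard error from 0.23 to 0.15.

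Named genes are all regulators, up to 4 called genes per direction of each list, the largest differences where fewer than 2 were called, and the 5 nearest in pattern; other genes named (list genes called with the block, Map2k3 against LPS, Nfkbiz against Control in LPS, Tnfaip3 and Ccl5) and the noise level were chosen after their values were seen. The regulators and lists were chosen with earlier results of these data known. Of the lists, 6 genes had no probe set listed under their symbol alone and were not used here. Alternatives covered the block, pseudocounts of 1 and 16, no filter, a filter at the 60th percentile, median centring, quantile normalization, no trend, each probe set tested alone, and leaving out each array.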

Additional observations from a re-analysis of the deposited data

How the results depend on the processing

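With the culture as a replicate block, the count of the 7 regulators called higher was 3 in HS+LPS against LPS, where it was 0 without, and 4 in HS+LPS against Control, where it was 1; with the block and quantile normalization, added after the data were seen, the counts were 2 and 3. Calls over all genes for HS+LPS against LPS were 816 higher and 1627 lower with the block, and 66 and 107 without. Without the trend they were 26 and 58. With the block and quantile normalization they were 828 and 1293, and 659 and 1166 for HS+LPS against Control. For LPS against Control they were 266 and 93 with the block, 19 and 0 without it, and 5 and 0 without the trend. For HS+LPS against Control they were 658 and 1561 with the block and 22 and 1 without, against 13 and 0 without the trend, 49 and 9 with a pseudocount of 16, 30 and 7 with the 60th percentile filter, 51 and 8 after median centring, and 39 and 1 over single probe sets. Without 1 array, at most 4 genes were called in LPS against Control, 33 higher and 43 lower in HS+LPS against LPS, and 14 in HS+LPS against Control. Of the 210 differences under the 10 settings that kept all arrays, 198 had the same direction and call and 10 were called in addition, all with the block. The Hnrnpd difference of HS+LPS from Control was -0.0066 after quantile normalization, with or without the block, a change of sign around 0.

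Leaving out 1 array at a time, the count called higher in LPS against Control was 0 to 1. Differences that changed sign, none of them called, ran in LPS against Control from -0.41 to 0.052 for Zfp36, -0.17 to 0.64 for Zfp36l1, -0.14 to 0.16 for Zfp36l2, -0.30 to 0.61 for Khsrp and -0.11 to 0.45 for Hnrnpd. In HS+LPS against LPS they ran from -0.33 to 0.28 for Zfp36l1 and -0.55 to 0.23 for Hnrnpd. In HS+LPS against Control they ran from -0.19 to 0.61 for Zfp36l1, -0.014 to 0.91 for Khsrp and -0.38 to 0.40 for Hnrnpd. The cause was not tested.

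Scaling to a common mean hides any difference in total mRNA, dim probe sets have understated differences, and 1 time point after LPS cannot show an earlier or later response.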
